A study of Homo sapiens with 36 samples.

Results

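The progression of the response to IL-1β in A549 cells was followed by subtracting the early response from the late one. The early response was the log2 level in IL-1β cells minus that in untreated control cells at day 6, and the late response was the mean of the same quantity at days 15 and 21. The result, named the difference of responses below, is positive where a gene stood higher, relative to its control, after longer exposure. It was made from 18 of the 36 libraries of the series, with 3 libraries in each of 6 groups: control cells at days 6, 15 and 21, and cells kept in IL-1β at 1 ng/ml for 6, 15 or 21 days. Each IL-1β group was compared with the untreated cells harvested on its own day. The remaining 18 libraries, from cells at 6, 15 or 30 days after the cytokine was removed and from their own controls, entered the estimate of the spread and were used once more at the end. A549 is an established human lung adenocarcinoma line, unmodified here, so every value comes from a single tumor line in culture. The labels name triplicates without saying whether these were separate cultures, and the p-values measure the spread between the 3 libraries of a group, which may be partly technical.

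IL-1β is a cytokine that signals through its receptor and MyD88 to NF-κB and AP-1, transcription factors that switch on chemokines, cytokines and their own inhibitors. Feedback inhibitors such as the NF-κB inhibitor proteins are among the earliest targets, so a lasting stimulus is met by a restrained pathway. In epithelial tumor cells, inflammatory cytokines can also start an epithelial-to-mesenchymal transition (EMT), in which factors of the SNAI and ZEB families repress junction genes such as the E-cadherin gene CDH1 while mesenchymal genes rise.

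Between 10856660 and 23570026 reads fell on genes in the 18 libraries, with a median of 16185812. The keratin genes KRT8, KRT18 and KRT7 were read at least 2559 times in each of them, whereas the lung alveolar markers NKX2-1 (0 to 3 reads) and SFTPC (0 to 5 reads) were close to absent and the epithelial marker EPCAM had 4 to 32 reads. Of the 7 leukocyte markers, 3 had no more than 3 reads in any of the 18 libraries, while CD14 had 36 to 237 reads and LYZ 4 to 22, and the 7 summed to 4.05 to 17.8 CPM. Genes of the mitochondrial genome took 20.03% of the reads in control day 6 replicate 2, 15.3% in IL-1β day 15 replicate 3 and 11.8% in IL-1β day 21 replicate 2, against 5.61% to 7.75% in the other 15, and values without the high mitochondrial libraries are given beside several results. Leaving out the libraries over 10% removes 11 of all 36.

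Very few genes passed the test of the difference itself. Of 19180 genes tested, 2 (0.0104%) were called, meaning an edgeR adjusted p under 0.05 and a change of more than 2-fold. An unadjusted p under 0.05 was found for 538 (2.81%). That is below the share of 0.05 that genes without any difference would give, so these 538 are no evidence of further change. ABAT, which encodes the enzyme that breaks down the transmitter GABA, built up. INHBB, which encodes the βB subunit of activins and inhibins, was repressed more deeply with time. By contrast, 531 genes (2.77%) were called at day 6 and 1127 (5.88%) in the late response, which averages 2 days and has a smaller standard error (median 0.22 against 0.314 on the log2 scale). By day, 814 genes were called at day 15 (4.24%), and at day 21 there were 421 higher (2.19%) and 396 lower (2.06%). The median late response of the 291 genes called higher at day 6 was 1.72, the same as their early median of 1.72. For the 240 genes called lower it was -1.85 against -1.75. Because these genes were chosen for their day 6 values, and the difference uses the same libraries, these medians are a description.

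**Figure D1:**
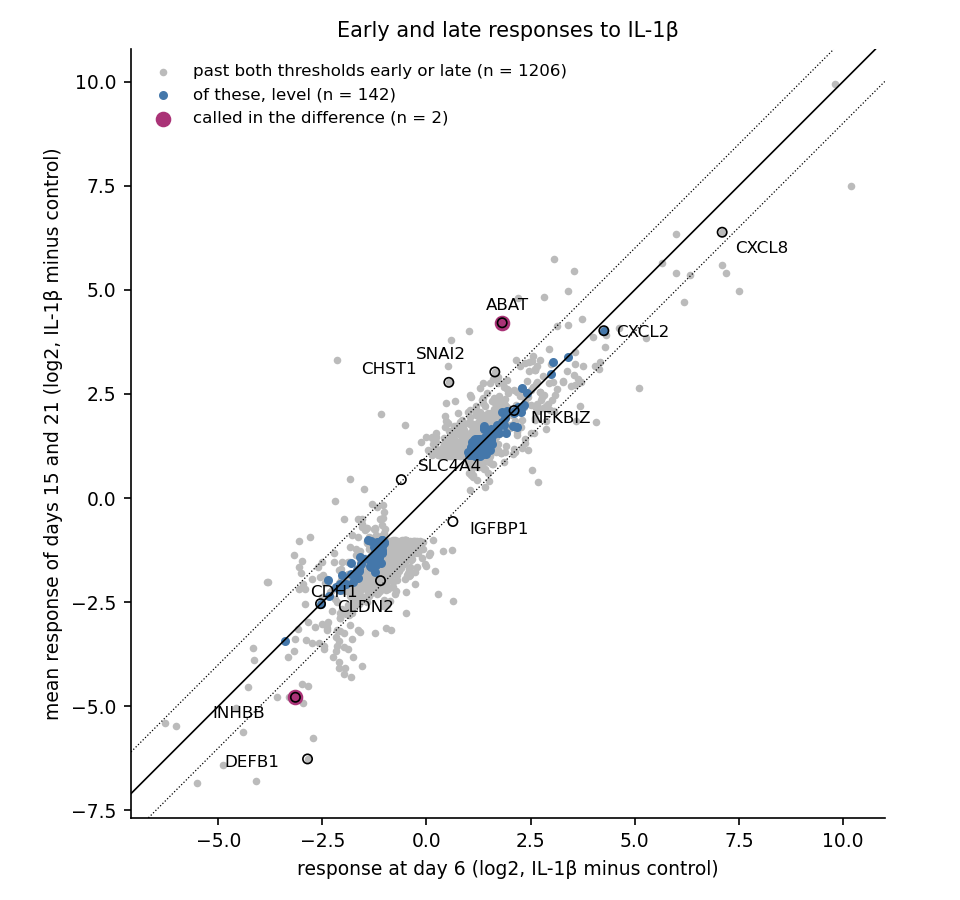
Response at day 6 (x axis, log2) and mean response of days 15 and 21 (y axis, log2) of the 1206 genes past both thresholds early or late, with the solid line at equality and the dotted lines at a 2-fold difference. The 142 level genes (blue) lie between the dotted lines, ABAT and INHBB (purple) are the 2 called genes, and circled genes are named in the text.

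ABAT (GRCh37 chromosome 16, 8768453 to 8878432, plus strand) had 0.828 to 2.35 CPM in the 9 control libraries. CPM are counts per 1000000 of the library size after TMM scaling. Its values in the IL-1β libraries were 6.42, 7.31 and 5.26 CPM at day 6, 18.3, 20.6 and 12.7 CPM at day 15, and 30.5, 32.9 and 27.3 CPM at day 21. The 3 days did not overlap in the IL-1β cells, and every IL-1β library stood above every control library. The response grew from 1.82 (day 6) through 3.75 (day 15) to 4.67 (day 21), and the difference of responses was 2.39 with a standard error (SE) of 0.36 and a 95% interval of 1.66 to 3.13 (edgeR adjusted p = 0.00295). It was positive in each of the 3 same-numbered sets of libraries, at 2.95, 2.51 and 1.47. The same sign in all 3 was a condition for naming a gene, and the sets are the libraries of the test itself. The IL-1β cells themselves rose by 1.85 (SE 0.25), while the control cells differed by -0.54 between the late days and day 6 (adjusted p = 1). Without control day 6 replicate 1, where ABAT was highest among the controls, the difference was 2.13 and the adjusted p 0.0733, so the call rests on that library. With total counts as the only scaling the difference was 2.25 and the adjusted p 0.171.

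INHBB (GRCh37 chromosome 2, 121103712 to 121109379, plus strand) had 116 to 168 CPM in the control libraries. In the IL-1β libraries it had 19.2, 20.4 and 16.3 CPM at day 6, 5.46, 5.17 and 6.62 CPM at day 15, and 3.8, 3.22 and 4.97 CPM at day 21. The day 6 values lay above all later ones, and the 2 later days did not overlap either, with 4.97 CPM as the highest value at day 21 and 5.17 CPM as the lowest at day 15. The response went from -3.15 at day 6 to -4.59 at day 15 and -4.97 at day 21, with a difference of responses of -1.63 (SE 0.24, 95% interval -2.12 to -1.15, adjusted p = 0.00295). It was negative in all 3 same-numbered sets, again a condition for naming, at -1.65, -1.82 and -1.37. INHBB fell by 1.95 in the IL-1β cells and differed by -0.32 in the controls (adjusted p = 1). Its call held in the fit without any single library, although neither gene was called once replicate 1 or replicate 2 was removed from every group. Since RNA came from whole cultures, fewer cells with a transcript and less transcript per cell cannot be told apart here.

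Taken one late day at a time, day 21 carried both calls and day 15 none. For ABAT the day 21 response minus the day 6 response was 2.85 (SE 0.41, adjusted p = 0.00312), and for INHBB it was -1.82 (SE 0.28, adjusted p = 0.00373). At day 15 the same quantities were 1.93 and -1.45, with adjusted p of 0.594 and 0.279. Between days 15 and 21 no gene was called by edgeR (213 genes, 1.11%, at an unadjusted p under 0.05), and the smallest adjusted p was 0.994. No gene was called for day 15 minus day 6 either, where 508 (2.65%) had an unadjusted p under 0.05.

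The bases before the start sites of the 2 called genes are shown because these genes carry the difference. They were read from the RefSeq promoter table (GRCh38.p14), each as 250 bases ending at the base before the start, on the plus strand. ABAT, on chromosome 16, has 4 entries in that table, and the first, chr16:8674367-8674616, is printed. INHBB has 1 entry, chr2:120345886-120346135. Capitals mark any match to the E-box CAGGTG, the AP-1 site TGANTCA or the NF-κB binding motif (kappaB site), searched on both strands.
ABAT: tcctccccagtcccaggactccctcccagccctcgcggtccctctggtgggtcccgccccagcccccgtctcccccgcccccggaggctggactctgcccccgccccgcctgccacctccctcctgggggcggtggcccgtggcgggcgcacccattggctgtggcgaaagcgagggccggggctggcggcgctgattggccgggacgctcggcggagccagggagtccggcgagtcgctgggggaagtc
INHBB: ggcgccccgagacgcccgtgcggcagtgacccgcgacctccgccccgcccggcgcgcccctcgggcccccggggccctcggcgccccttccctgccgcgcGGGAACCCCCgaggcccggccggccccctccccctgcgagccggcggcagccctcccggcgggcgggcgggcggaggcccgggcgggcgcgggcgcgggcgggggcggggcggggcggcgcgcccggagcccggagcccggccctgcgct
The INHBB window held 1 kappaB match, and none of the 4 ABAT windows held any of the 3 motifs. Among 35116 windows of this length in the table, 9.96% held a kappaB match, 17.5% an E-box and 6.57% an AP-1 site. The INHBB window was 89.6% G and C, and 99.97% of all windows had a lower share.

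Next to the 2 called genes, uncalled genes are given for each kind of change. They had the smallest p among genes with the same sign in all 3 same-numbered sets. A mean of at least 1 CPM in a group, a symbol and a protein-coding or lncRNA biotype were also required. Among induced genes, CHST1, which encodes a sulfotransferase of keratan sulfate, had 0.483, 0.585 and 0.536 CPM in IL-1β cells at day 6, 1.5, 1.39 and 1.24 CPM at day 15 and 2.77, 4.12 and 1.97 CPM at day 21. Control libraries had 0.0591 to 0.433 CPM, below every IL-1β library, and the 3 days of IL-1β did not overlap. Its response was 0.54 at day 6 and 2.78 late, and the difference of 2.24 (SE 0.53) had an adjusted p of 0.786. ARHGAP28, a GTPase-activating protein, had a response of 0.05 at day 6 and 1.17 late, a difference of 1.12 (SE 0.27, adjusted p = 0.786).

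DEFB1, the gene of the antimicrobial peptide beta-defensin 1, had the lowest fitted difference of responses of all genes tested. It had 37.2, 21.6 and 37.2 CPM in the controls at day 6 and 5.59, 4.82 and 2.92 CPM in the IL-1β cells, but 0.501, 0.697 and 0.103 CPM at day 15 and 0.217, 0 and 0.205 CPM at day 21. All late IL-1β libraries lay below all day 6 ones. The response was -2.86 at day 6 and -6.26 late, and the difference of -3.41 (SE 0.73) had an adjusted p of 0.409. It passed both thresholds under 7 alternatives, among them DESeq2's Wald test (-3.48, adjusted p = 0.00184) and the fit of the 18 exposure libraries alone (-3.40, adjusted p = 0.00600), while over all alternatives, those leaving out libraries included, its adjusted p ran from 0.00184 to 1. SHROOM3, a regulator of apical cell shape in epithelia, had responses of -0.40 at day 6 and -1.65 late (difference -1.25, SE 0.31, adjusted p = 0.786).

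For fading responses no gene was called in either direction. IGFBP1, a binding protein of insulin-like growth factors, had 56.0, 55.7 and 28.2 CPM in IL-1β cells at day 6 and 14.9 to 23.9 CPM at days 15 and 21, with controls between 20.7 and 39.3 CPM. Its IL-1β values stood above the control of the same number at day 6 and below it at both later days. The response was 0.63 and then -0.56, and the difference was -1.20 (SE 0.28, adjusted p = 0.786). Without IL-1β day 6 replicate 3, whose value was the lowest of its group, it was -1.46 with an adjusted p of 0.0387. BID, a proapoptotic BCL2 relative, had responses of 1.39 and 0.87 (difference -0.52, SE 0.14).

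Among genes below control at day 6, SLC4A4, a sodium bicarbonate cotransporter, had 13, 14.3 and 19.9 CPM in IL-1β cells at day 6 against 25, 23.8 and 23.0 CPM in controls, and 22.2 to 38.1 CPM against 18.7 to 25.6 CPM at the late days. The response changed sign, from -0.60 to 0.44, and the difference of 1.05 (SE 0.25) had an adjusted p of 0.786. AUTS2, a regulator of neuronal transcription, had responses of -1.04 and -0.16 (difference 0.88, SE 0.25, adjusted p = 0.923). TCP11L1 had -0.38 and 0.09 (difference 0.47, SE 0.14).

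**Figure D2:**
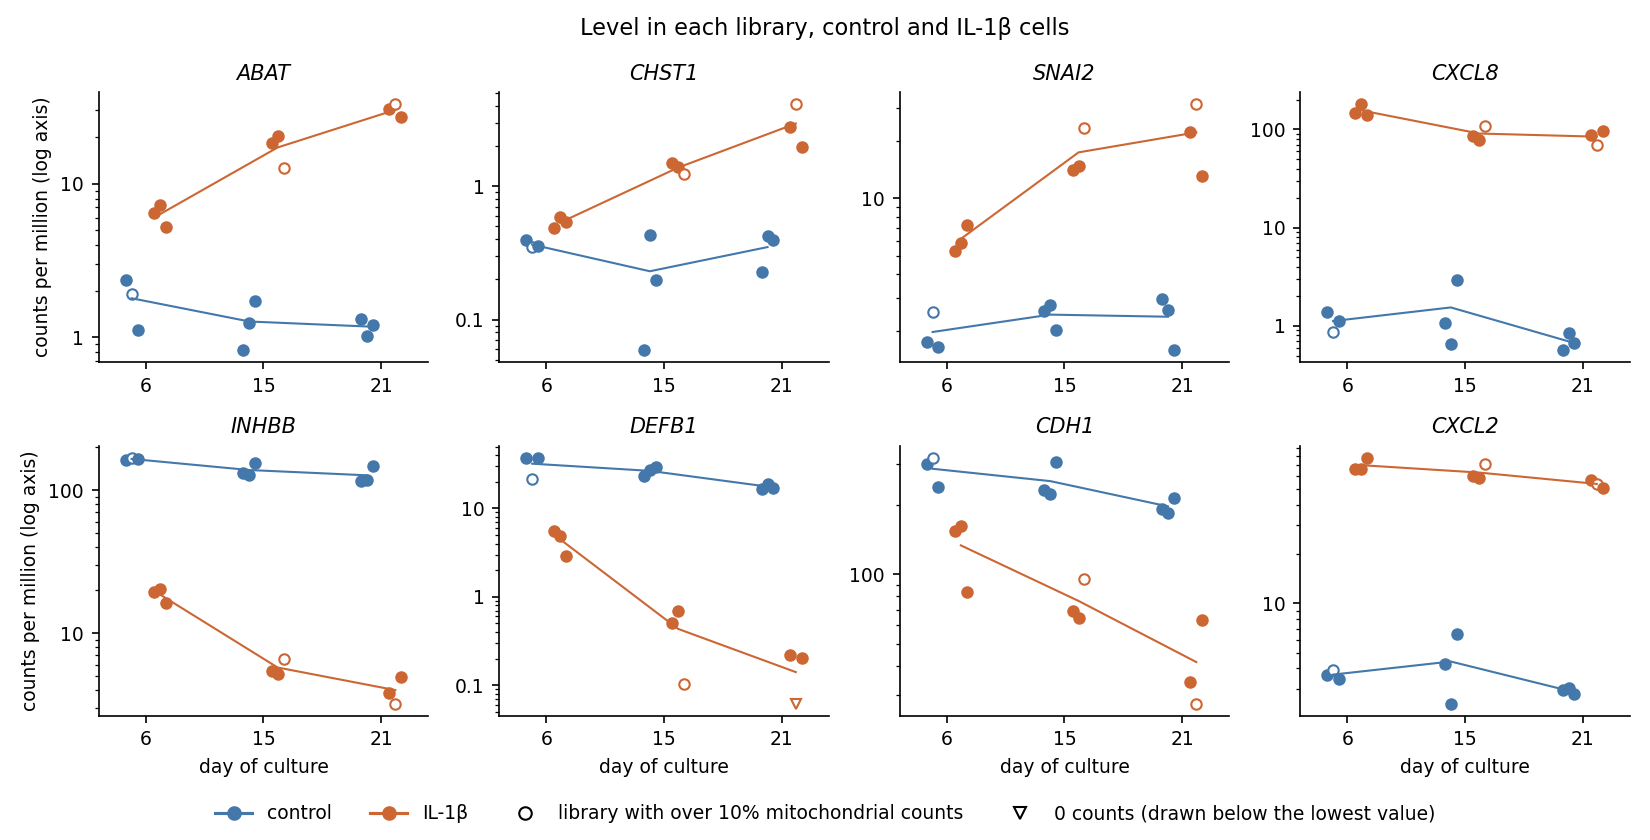
CPM of 8 genes in each of the 18 libraries (y axes, logarithmic) by day (x axis), with lines through the group means and open symbols for the 3 libraries with over 10% mitochondrial counts. ABAT, CHST1 and SNAI2 stood higher in IL-1β cells at the later days, INHBB, DEFB1 and CDH1 lower, and CXCL2 and CXCL8 stayed far above control throughout.

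The change within the exposed cells themselves was more often called than the difference of responses. The difference also carries the spread of the control libraries, and its median SE was larger (0.383 against 0.271). When IL-1β cells of days 15 and 21 were compared with IL-1β cells of day 6, 90 genes were called (0.469%), of which 18 rose (0.0938%) and 72 fell (0.375%). In control cells the same comparison called 1 gene (0.00521%), the coagulation factor V gene F5, which fell by 2.42. There, 884 genes (4.61%) had an unadjusted p under 0.05. Control cells nonetheless had the same sign for 14 of the 18 risers and all 72 of the fallers, with medians of 0.407 and -0.493 against 1.44 and -1.36 in IL-1β cells. The difference of responses had the sign of the exposed cells for 18 and 71 of them and an unadjusted p under 0.05 for 11 and 46. These counts share the IL-1β libraries with the rule that chose the genes and are a description. Replicate 3 weighed on this comparison, as 1, 13 and 424 genes were called in IL-1β cells without replicates 1, 2 and 3, and 0, 0 and 112 in control cells, and leaving out the high mitochondrial libraries gave 129 in IL-1β cells, among them 72 of the 90.

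**Figure D3:**
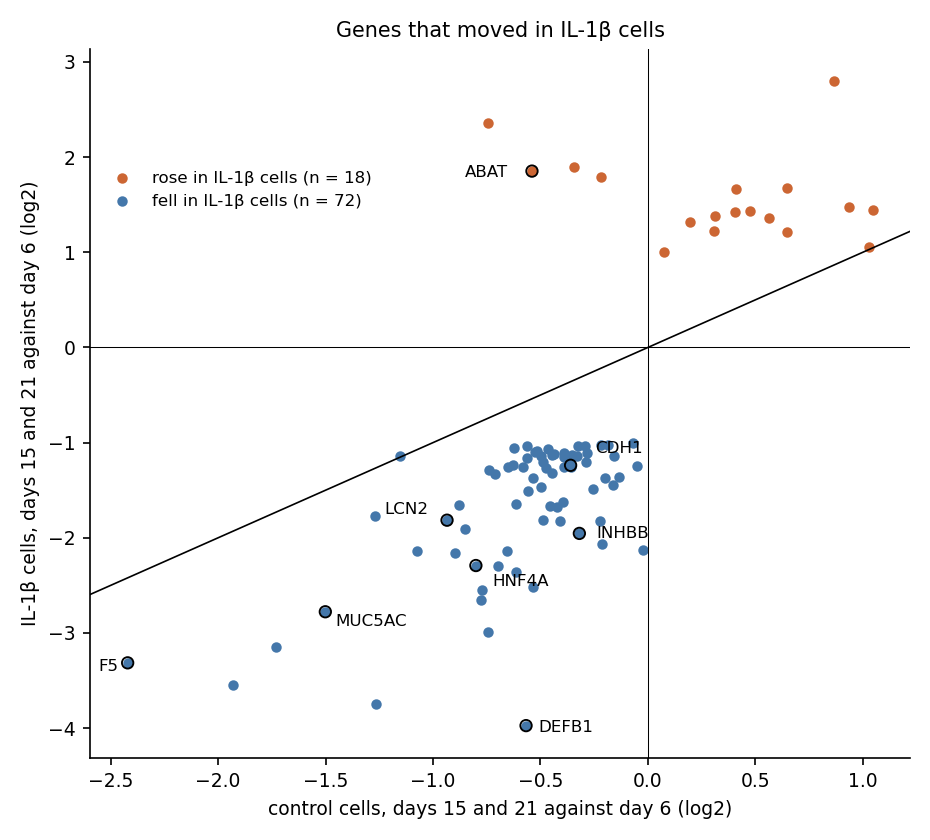
Change from day 6 to the mean of days 15 and 21 in control cells (x axis, log2) and in IL-1β cells (y axis, log2) for the 90 genes called in IL-1β cells, with the line at equality. All 72 genes that fell in IL-1β cells lie left of 0 for the controls as well, and all but 1 of them lie below the line.

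Genes of epithelial defence made up the largest group among the fallers of all lists. Of 12 members tested, 6 fell in IL-1β cells between day 6 and the later days, beside 0.375% of all genes. They were DEFB1, the mucin genes MUC5AC and MUC5B, the protease inhibitor gene SLPI, AGR2 and LCN2. The AGR2 product helps mucins fold, and LCN2 encodes an iron-withholding protein. The list's median difference of responses was -1.30, with 11 of 12 negative, beside -0.00702 and 9744 of 19180 over all genes. Without the high mitochondrial libraries it was -1.31, again 11 of 12 negative. None of the 6 was called in the difference.

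MUC5B had 637, 736 and 156 CPM in the controls at day 6 and 291, 172 and 39.3 CPM in IL-1β cells, against 20.1, 15.2 and 26.4 CPM at day 15 and 7.98, 4.04 and 17.6 CPM at day 21 of IL-1β. Day 6 replicate 3 was the lowest library of its group in both arms, and every late IL-1β value lay below it. MUC5B fell by 3.55 in IL-1β cells, and its controls, at 72.5 to 298 CPM late, differed from day 6 by -1.93 (adjusted p = 0.43), which left a difference of responses of -1.62 (SE 0.70, adjusted p = 0.923). MUC5AC fell by 2.78 in IL-1β cells, from 64.8, 40.1 and 7.55 CPM at day 6 to 2.77 to 8.41 CPM late, and its controls differed by -1.50 (adjusted p = 0.55). In the same way AGR2 fell by 2.16, from 60.5, 69.1 and 21.8 CPM to 4.64 to 24.8 CPM, and SLPI by 2.55, from 10.0, 8.40 and 2.14 CPM to 0.434 to 1.76 CPM. For SLPI the response was -0.48 at day 6 and -2.26 late.

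LCN2 fell in IL-1β cells but stayed above control throughout. It had 39.1, 36.5 and 16.3 CPM in IL-1β cells at day 6 and 6.25 to 10.7 CPM later, against 0.325 to 2.09 CPM in all controls, so IL-1β and control libraries never overlapped. Its response was 4.16 early and 3.28 late (difference -0.88, SE 0.61, adjusted p = 0.923), and it fell by 1.82 in IL-1β cells, where the controls differed by -0.93. The chemokine gene CXCL1 also stayed above control, with 284, 283 and 227 CPM in IL-1β cells at day 6, 130, 123 and 169 CPM at day 15 and 84.5, 85.2 and 129 CPM at day 21. It fell by 1.16 in IL-1β cells, yet its response was 6.00 at day 6 and 5.40 late (difference -0.60, SE 0.33).

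Liver-type and lineage genes were also among the fallers. HNF4A, a hepatic and intestinal transcription factor, had 5.80, 6.14 and 5.6 CPM in IL-1β cells at day 6, 1.75, 1.51 and 1.14 CPM at day 15 and 0.706, 0.898 and 1.19 CPM at day 21. Controls had 24.8 to 28 CPM at day 6 and 9.97 to 25.6 CPM late. HNF4A fell by 2.29 in IL-1β cells, with controls at -0.80 (adjusted p = 1), and its difference of responses was -1.49 (SE 0.52, adjusted p = 0.923), which passed both thresholds in the fit of the 18 exposure libraries alone (adjusted p = 0.0331). The fibrinogen alpha chain gene FGA fell by 2.14, from 5.11, 4.02 and 2.53 CPM at day 6 to 0.225 to 2.59 CPM late. F5 was the 1 gene called in both arms, at 6.93, 7.83 and 6.26 CPM in day 6 controls and 0.627 to 3.61 CPM in late ones, and its response of -2.59 early and -3.48 late differed by -0.89 (SE 0.67). The IL-1β libraries of day 21 held no more than 3 reads of F5, so its late response has no firm lower end. C1R, a complement protease, fell by 1.24 in IL-1β cells, and its response was 1.04 early and 0.43 late.

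The 14 lineage factors and markers had a median difference of 0.0212 with 7 positive and 7 negative (-0.196 without the high mitochondrial libraries), and held ABAT as the 1 riser and HNF4A as the 1 faller. The 19 genes of fibrinogen, coagulation and complement had a median of -0.327 with 14 negative (-0.53 with 17 negative without the high mitochondrial libraries). Of these 19, 3 fell in IL-1β cells (all genes, 0.375%).

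Activin, BMP and TGF-β pathway genes included 3 that fell in IL-1β cells. Of 24 tested, INHBB was the only gene called in the difference, and INHBB, BMP4 and SMAD6 fell in IL-1β cells (all genes, 0.375%). BMP4, a ligand, had 12.8, 12.4 and 10.8 CPM in IL-1β cells at day 6 and 3.07 to 6.85 CPM late, and fell by 1.21. SMAD6, an intracellular inhibitor of BMP signaling, had 55.3, 51.8 and 34.1 CPM at day 6 and 16.5 to 29.7 CPM late, and fell by 1.02. Their responses were -0.75 and -0.85 early and -1.67 and -1.65 late, with differences of -0.92 (SE 0.39) and -0.80 (SE 0.29) that were not called. The ligand gene TGFB1 had responses of 0.24 and 0.04. The median difference over the list was -0.0883, with 10 positive and 14 negative.

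Of the 18 genes that rose in IL-1β cells, ABAT, CHST1 and ARHGAP28 were named by their p for the difference in these data. HDAC9 and THBS1 were named as members of lists chosen with earlier results known. The other risers were picked after their values were seen. They included PTPRD, a receptor phosphatase (response 2.83 early and 4.84 late), NFASC, a neuronal adhesion protein (1.51 and 2.77), SERPINB7, a serpin (1.85 and 2.77), NID2, a basement membrane protein (0.55 and 1.62) and DOCK2, an activator of Rac (0.64 and 1.60). HDAC9, a histone deacetylase, had 3.66, 3.87 and 4.04 CPM in IL-1β cells at day 6, 5.71, 6.80 and 13 CPM at day 15 and 12.2, 13.7 and 12.5 CPM at day 21, with controls at 1.31 to 2.96 CPM. HDAC9 rose by 1.43, and its response was 1.33 early and 2.35 late (difference 1.02, SE 0.49, adjusted p = 0.923). THBS1, which encodes the matrix protein thrombospondin 1, rose by 1.21 in IL-1β cells, from 27.5, 27.6 and 53.6 CPM to 70.7 to 104 CPM, while controls differed by 0.65 (adjusted p = 0.91), and its response was 0.16 early and 0.73 late. IL31RA, a cytokine receptor, rose by 1.05 in IL-1β cells with controls at 1.03, so its response stood at 1.89 early and 1.91 late.

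Another behaviour was a response that did not move. Of 452 genes called both early and late, 142 were level, defined as a 95% interval of the difference within -1 and 1, 2 were called in the difference, and 308 were neither, because their intervals reached beyond a 2-fold change. Of the level genes 85 were induced and 57 repressed. Their half-intervals had a median of 0.621, against 1.03 for the 308. The 261 and 414 genes called higher or lower only in the late response included none that was called in the difference.

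Level genes are named from the 8 with the tightest intervals among 19 whose response was beyond 2 on the log2 scale at both stages. CXCL2, a neutrophil chemokine, had 66.0, 66.7 and 77.8 CPM in IL-1β cells at day 6, 60.3, 58.3 and 71.1 CPM at day 15 and 57.2, 53.7 and 50.8 CPM at day 21, against 2.44 to 6.53 CPM in controls. Its response was 4.26 early and 4.02 late, a difference of -0.24 (SE 0.28, 95% interval -0.80 to 0.33). NFKBIZ, an inducible nuclear regulator of NF-κB, had a response of 2.10 both early and late (interval -0.69 to 0.69), with 38.8 to 85.6 CPM in IL-1β cells and 9.76 to 16.1 CPM in controls. NAMPT, an enzyme of NAD synthesis, stood at 443 to 973 CPM in IL-1β cells and 96.7 to 143 CPM in controls, with a response of 2.20 at both stages (interval -0.83 to 0.83). The highest NAMPT value was from the day 15 library of high mitochondrial share, and the next was 650 CPM. Reads of NAMPT and its processed copy NAMPTP1 (2.26 and 2.08) may be shared between them.

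On the repressed side, the keratin gene KRT8 had 538 to 960 CPM in IL-1β libraries and 2624 to 4235 CPM in controls, with no overlap, and responses of -2.09 and -2.14 (interval -0.81 to 0.71). NCKAP5 had responses of -2.34 and -2.35 (interval -0.62 to 0.60). The SE behind that interval (0.298) was below the SE of its IL-1β cells alone (0.433), so the interval is probably too narrow. The 3 same-numbered sets gave NCKAP5 differences of 0.54, 0.15 and -0.43, and its level call is uncertain. LINC00322 also met the definition, but every IL-1β library held at most 3 of its reads, so its interval says little and no fold is given. CLDN2, which encodes a pore-forming tight junction claudin, was level at -2.54 and -2.53, although its IL-1β cells fell. It had 61.1, 64.8 and 45.7 CPM in day 6 controls and 21.8 to 36 CPM in late ones, and 11.1, 10.3 and 8.04 CPM and then 2.90 to 5.87 CPM in IL-1β cells. CLDN2 fell by 1.14 in IL-1β cells, with controls at -1.15 (adjusted p = 0.22).

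Many chemokine and colony stimulating factor genes were called higher at both stages, with mostly negative differences of responses. Of 14 tested, 10 were called higher at day 6 (all genes, 1.52%) and 10 late (2.66%), 1 was called lower at each stage, and none was called in the difference. Their differences were negative for 13 of 14 with a median of -0.631, and for 12 of 14 with a median of -0.531 without the high mitochondrial libraries. CXCL8, the interleukin 8 gene, had 149, 181 and 140 CPM in IL-1β cells at day 6, 86.6, 78.8 and 108 CPM at day 15 and 88.7, 69.2 and 95.7 CPM at day 21, so that the day 6 values lay above all later ones. Its controls had 0.570 to 2.92 CPM, and its response was 7.10 early and 6.38 late (difference -0.72, SE 0.49, adjusted p = 0.923). CCL20, a chemokine for immature dendritic cells and lymphocytes, had responses of 7.20 and 5.41 (difference -1.79, SE 0.58, adjusted p = 0.923). The monocyte chemokine gene CCL2 had responses of 4.00 and 3.88 (difference -0.12, SE 0.47, or -0.47 without the high mitochondrial libraries).

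Among 18 NF-κB subunit and feedback genes, 12 were called higher early (all genes, 1.52%) and 11 late (2.66%), and none in the difference. Of the 18, 3 (NFKBIA, NFKBIZ and TNIP1) were level. Only genes called both early and late could be level, and over all genes 142 of 452 such genes were. The median response of the list was 2.08 early and 1.40 late. Differences were negative for 16 of 18 both with all libraries (median -0.384) and without those of high mitochondrial share (-0.340). TNFAIP3, a ubiquitin-editing inhibitor of the pathway, had responses of 4.05 and 3.18 (difference -0.87, SE 0.25) and IRAK2, a receptor-proximal kinase, 2.98 and 2.11 (-0.87, SE 0.29), with an adjusted p of 0.923 each. Of 11 AP-1 and related factors, 3 were called higher at each stage (all genes, 1.52% and 2.66%) and 10 had a negative difference (median -0.385). JUN had responses of 2.01 and 1.69, and FOSL1 2.36 and 2.31 with an SE of the difference of 0.64.

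The interleukin and TNF family ligands went both ways, with 5 positive and 6 negative differences (median -0.505, or -0.339 with 3 positive and 8 negative without the high mitochondrial libraries), and 4 of 11 were called higher early (all genes, 1.52%) and 5 late (2.66%). The IL-1 genes themselves had the largest positive values in this list. IL1A had a mean of 0.656 CPM in IL-1β cells at day 6, 1.94 CPM at day 15 and 3.04 CPM at day 21, and IL1B 1.03, 2.82 and 3.41 CPM. The controls of both genes held no more than 3 reads in any library of days 15 and 21, so their fitted late responses depend on the fit's prior count, and neither difference was called (adjusted p = 0.923 for each).

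EMT transcription factors had a median difference of 0.328 with 7 of 11 positive, which was 0.0674 with 7 of 11 positive without the high mitochondrial libraries. SNAI2, the repressor also named Slug, had 5.31, 5.85 and 7.21 CPM in IL-1β cells at day 6, 14.2, 14.8 and 23.5 CPM at day 15 and 22.4, 31.3 and 13.1 CPM at day 21, against 1.59 to 2.96 CPM in controls. Every late IL-1β library was above every early one, and the later days overlapped. Its responses were 1.64, 2.83 and 3.23 in order of day. The difference of 1.39 (SE 0.58, 95% interval 0.19 to 2.59) had an unadjusted p of 0.0247 and an adjusted p of 0.923, and without the high mitochondrial libraries, which hold the highest SNAI2 value of each late day, it was 0.89. The part of those libraries in this difference was not tested. ZEB2 had responses of 1.36 and 2.29 (difference 0.93, SE 0.48) and RUNX2 0.92 and 1.28 (difference 0.37, SE 0.24), and without the high mitochondrial libraries these differences were 0.38 and 0.11.

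E-cadherin transcripts fell in the exposed cells. CDH1 had 185 to 319 CPM in controls, and in IL-1β cells 154, 162 and 83.3 CPM at day 6, 69.5, 64.8 and 95.2 CPM at day 15 and 34.1, 27.5 and 63.1 CPM at day 21. No IL-1β library reached the lowest control, and the day 6 and day 15 values overlapped through replicate 3. CDH1 fell by 1.24 in IL-1β cells, with controls at -0.36 (adjusted p = 1), and its response went from -1.10 to -1.98 (difference -0.88, SE 0.36, adjusted p = 0.923). Without replicate 3 of every group the difference was -1.23 with an adjusted p of 0.00285. No gene, CDH1 included, was called in the difference without replicate 1 or without replicate 2. Among the 23 junction and keratin genes, 6 were called lower at day 6 (1.25% of all genes) and 7 late (3.21%). At each stage 2 of the 23 were called higher (1.52% of all genes at day 6 and 2.66% late). Of the list, 5 were level (CLDN2, DSP, CGN, KRT8 and KRT81), beside 142 of all 452 genes called early and late. Its differences were positive for 8 and negative for 15 (median -0.0519).

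For the mesenchymal and matricellular genes, 5 of 19 were called higher at each stage (all genes, 1.52% early and 2.66% late). Of the 19, 2 were level, among them TGFBI, beside 142 of all 452 genes called early and late. The median difference was 0.188, with 11 positive and 8 negative, although the median response itself was 0.835 early and 0.779 late, and without the high mitochondrial libraries the median difference was -0.0689. TNC, an extracellular matrix glycoprotein, had responses of 3.74 and 4.29 (difference 0.55, SE 0.64). Of 14 integrin subunits, 2 were called higher early and 4 late, against the same shares of all genes, and 1 was called lower late (3.21%). The median difference of the integrin list was -0.00926. ITGB3, whose exons are shared with another gene on the same strand over 33.2% of their length, had 19.3, 22.9 and 12.5 CPM in IL-1β cells at day 6 and 23.9 to 42.7 CPM late, and responses of 1.41 and 2.20 (difference 0.80, SE 0.32). The 22 collagens and laminins (median -0.236, 14 negative) and the 13 matrix proteases and inhibitors (median -0.125, 9 negative) had no called difference. Of the proteases and inhibitors, PLAU, PLAUR and PLAT were level, beside 142 of all 452 genes called early and late.

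**Figure D4:**
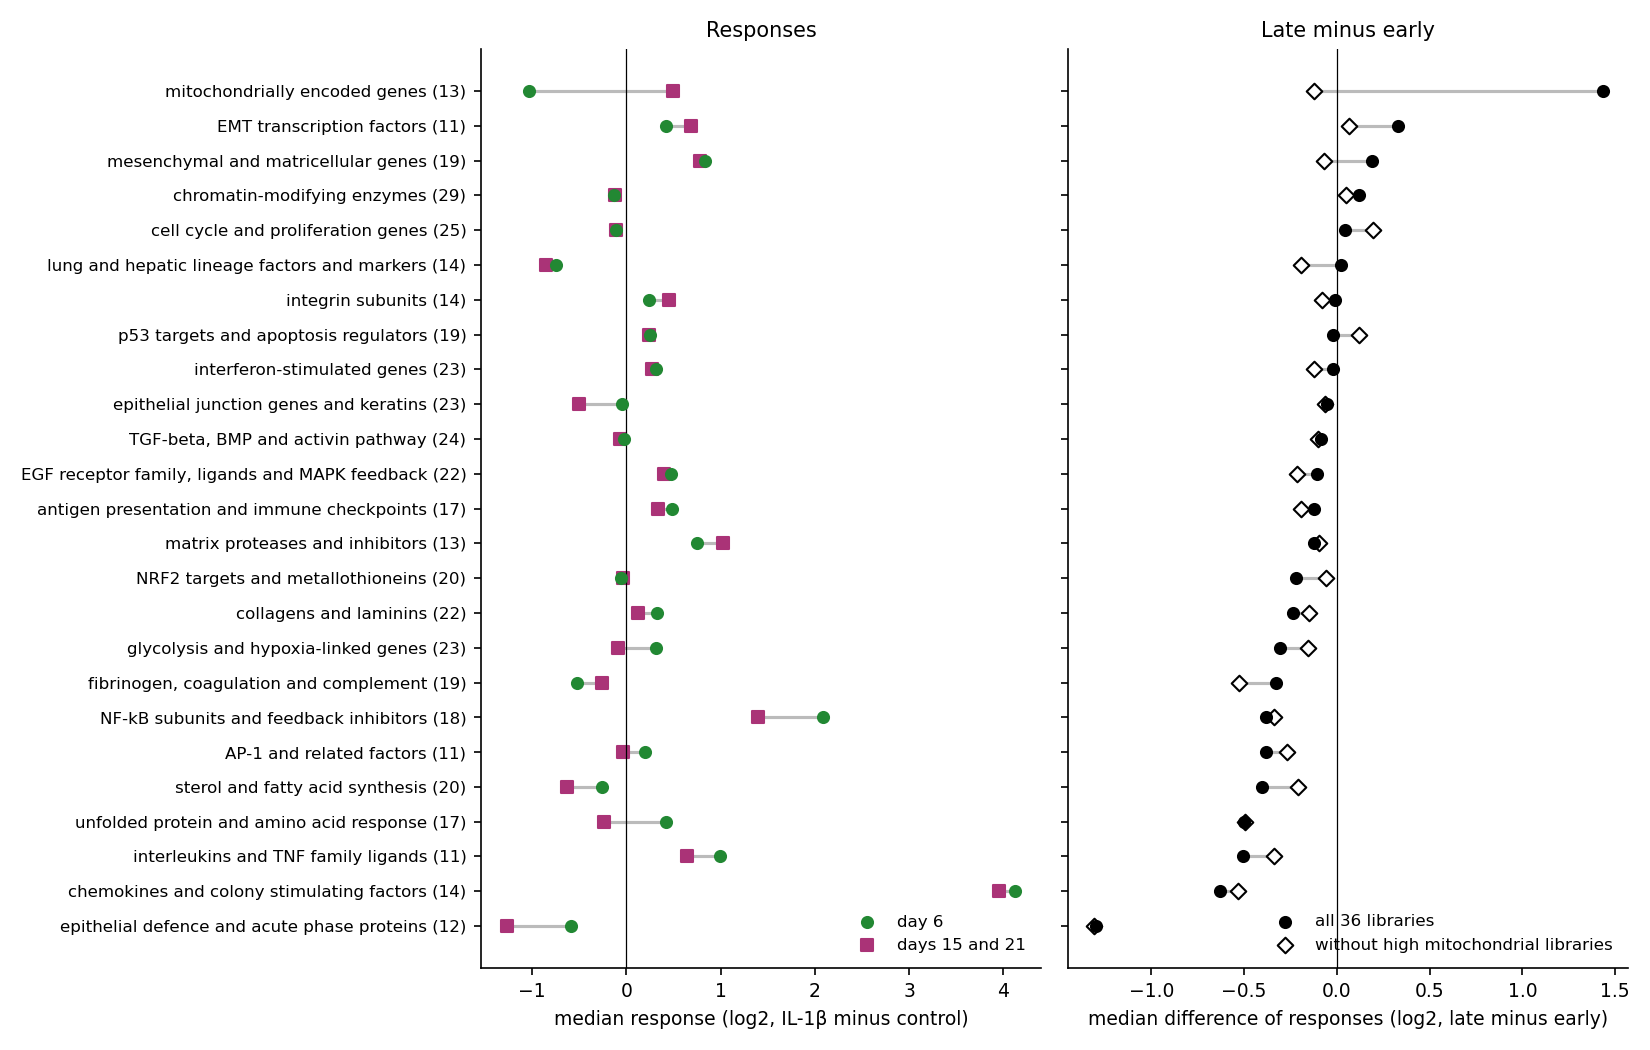
Median response of each gene list at day 6 (green) and at days 15 and 21 (purple) on the left, and the median difference of responses on the right with all libraries (filled) and without those of high mitochondrial share (open), all in log2, with the number of genes tested in parentheses. Chemokine genes lie near 4 at both stages, epithelial defence genes have the lowest median difference, and the mitochondrial genes move from 1.43 to -0.121 between the settings.

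Stress and metabolic lists had no member called in the difference. The 17 genes of the unfolded protein and amino acid response had a median response of 0.42 early and -0.243 late, and 16 of 17 differences were negative (median -0.499, and -0.498 without the high mitochondrial libraries). None of them was called at either stage. DDIT4, a stress-induced inhibitor of mTOR, had responses of 1.00 and -0.33 (difference -1.33, SE 0.56), and CHAC1, which degrades glutathione, 1.21 and -1.35 (difference -2.56, SE 1.13). For DDIT4 the response was -0.76 at day 15 and 0.10 at day 21, and for CHAC1 it was -2.68 and -0.02, so day 15 weighed most. Glycolysis and hypoxia-linked genes had 20 of 23 negative differences (median -0.305, and -0.155 without the high mitochondrial libraries). HK1, a hexokinase, went the other way with responses of 0.62 and 1.39 (difference 0.77, SE 0.25). CA12, a carbonic anhydrase, fell by 1.04 in IL-1β cells, from 1367, 1340 and 814 CPM at day 6 to 454 to 644 CPM late, and its response was 0.29 early and -0.45 late.

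Sterol and fatty acid genes had 18 of 20 negative differences (median -0.403), which became 15 of 20 and -0.208 without the high mitochondrial libraries. Of 20 NRF2 targets and metallothioneins, AKR1C1, AKR1C2 and AKR1C3 fell in IL-1β cells by 1.03, 1.37 and 1.09 (share of all genes that fell, 0.375%). These aldo-keto reductase genes are near-identical in sequence and may share reads. AKR1C2 had 844, 873 and 632 CPM in IL-1β cells at day 6 and 165 to 432 CPM late, with responses of -1.07 and -1.90 (difference -0.83, SE 0.31), and the list had 13 negative differences (median -0.222), or 12 (-0.0586) without the high mitochondrial libraries, while with their share as a covariate the median was 0.0198.

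For the other lists the median differences were 0.122 for 29 chromatin-modifying enzymes, 0.0449 for 25 cell cycle genes, -0.0206 for 19 p53 targets and apoptosis regulators, -0.0235 for 23 interferon-stimulated genes, -0.105 for 22 genes of the EGF receptor family and MAPK feedback and -0.125 for 17 antigen presentation and checkpoint genes, with no member called in the difference. Without the high mitochondrial libraries the cell cycle median was 0.193 with 23 of 25 positive, and those of the p53, interferon, EGF receptor, antigen and chromatin lists were 0.118, -0.125, -0.216, -0.191 and 0.0511. TET1, a DNA demethylase, had responses of -1.55 and -0.51 (difference 1.04, SE 0.31, adjusted p = 0.923). CD274, which encodes PD-L1, had responses of 1.87 and 2.24 (difference 0.37, SE 0.64), and the sign turned, to -0.19, without the high mitochondrial libraries. MAP4K1, a kinase of immune signaling, had -0.84 and -1.21, and FOXA1, a forkhead pioneer factor, -1.0 and -0.75.

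All 13 protein-coding genes of the mitochondrial genome had a positive difference, with a median of 1.43, and none was called. Without the high mitochondrial libraries the median was -0.121 and 12 of 13 were negative. This list therefore follows the 3 libraries named above, 1 in the day 6 controls and 2 in the late IL-1β groups. With total counts as the only scaling, the median difference over all genes was -0.141, a shift that applies to every list, and against it the chemokine (-0.773), NF-κB (-0.541), unfolded protein (-0.614) and epithelial defence (-1.45) medians stayed lower, while those of the cell cycle (-0.064), chromatin (-0.0226) and lineage (-0.129) lists turned negative.

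In the libraries made after withdrawal, which the difference did not use, part of the response was still called, with 346 genes at day 6 after withdrawal (1.8%), 183 at day 15 (0.954%) and 172 at day 30 (0.897%). Of the 18 risers, 17 were called higher at day 6 after withdrawal (all genes, 1.08%) and 8 at day 30 (0.433%). Of the 72 fallers, 40 were called lower at day 6 after withdrawal (all genes, 0.725%) and 21 at day 30 (0.464%). Of the 142 level genes, 48 and 22 were still called in their direction at these days. Over all 19180 genes, 343 and 162 were called in the direction of their late response. The median response of the risers was 2.26 at day 21 of exposure, 2.30 at day 6 after withdrawal and 1.07 at day 30. In the same order the fallers had medians of -2.02, -1.35 and -0.915. The level induced genes had 1.41, 0.778 and 0.569, and the level repressed genes -1.53, -1.05 and -0.646. ABAT was at 2.24, 1.01 and 0.64 at 6, 15 and 30 days after withdrawal, and INHBB at -3.31, -2.36 and -1.64. The size of the response differed between these gene sets already during exposure, no test of the sets was made, and 8 of the 18 withdrawal libraries had a high mitochondrial share.

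**Figure D5:**
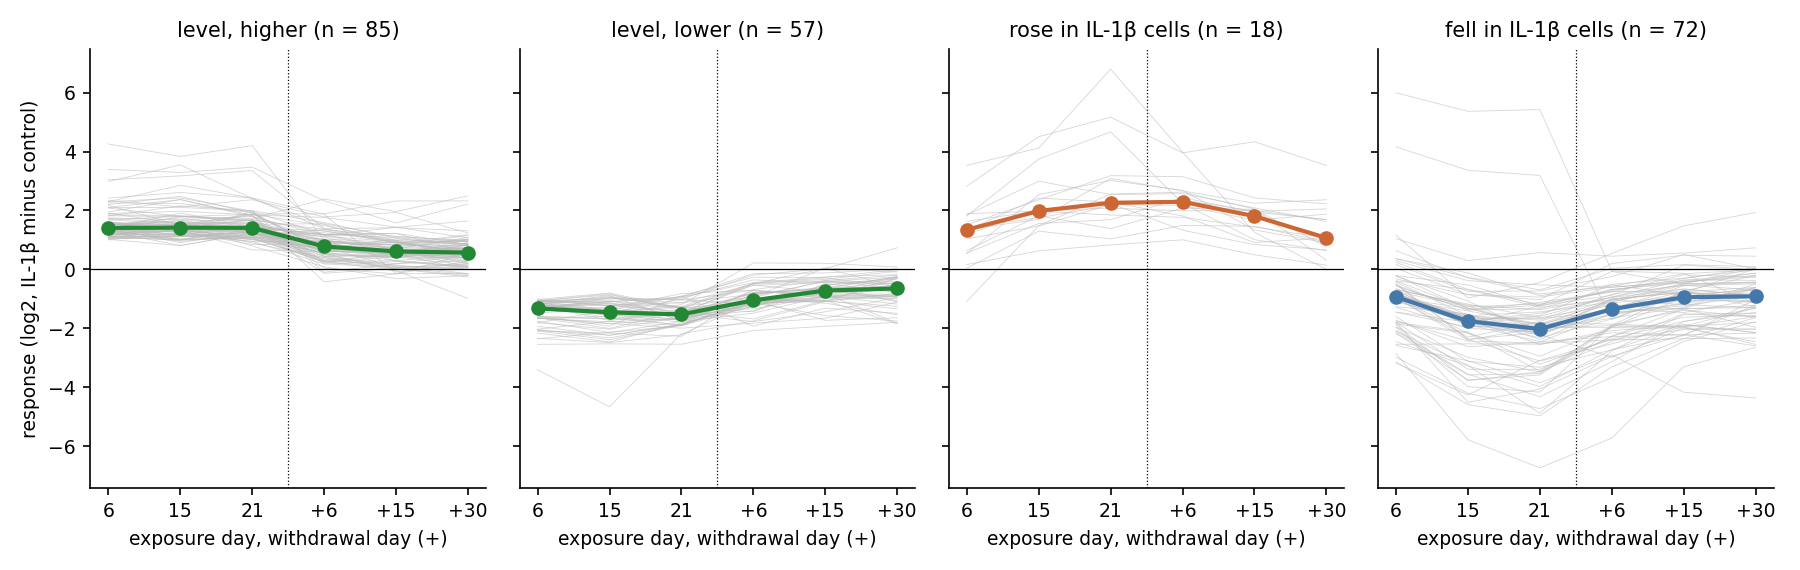
Response of each gene (grey, log2) and the median (colored) at days 6, 15 and 21 of exposure and at 6, 15 and 30 days after withdrawal, right of the dotted line, for level genes and for genes that rose or fell in IL-1β cells. Medians of the level genes stay flat during exposure and move toward 0 afterwards, and that of the 18 risers is still 2.30 at day 6 after withdrawal.

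Read from the other side, the 207 genes called higher at day 6 after withdrawal (1.08%) had a median response of 1.27 at day 6 of exposure and 1.62 late, and 156 of their 207 differences were positive, beside 9436 of 19180 over all genes. The 139 genes called lower there had medians of -1.61 and -1.96, with 120 of 139 differences negative. Those genes were chosen in libraries that the difference of responses did not use, but 169 of the 207 and 127 of the 139 were also called late. Among all genes called higher late, 346 of 511 differences were positive. Among all genes called lower late, 538 of 616 were negative.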

How the data were processed

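RNA was sequenced as single-end Illumina reads. The authors made the deposited files, 1 per library, as raw counts of reads per gene. Per the labels' processing notes and the study's methods the tools were bcl2fastq 2.17, TopHat2 2.0.14, Bowtie2 2.2.5 and HTSeq 0.6.1 on GRCh37. The strand setting of the counting is not given in the sources used here, so reads of overlapping genes may be shared. The 5 HTSeq summary lines were left out of library sizes and tests (in the exposure libraries no feature took 8.48% to 14.8% and ambiguous 3.04% to 4.16%). Of 63677 genes listed, 55665 were matched to GENCODE release 44 on GRCh37 for names and positions.

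Samples were grouped by the labels. All 36 libraries were fitted as 12 groups (24 residual degrees of freedom) with edgeR 4.0.16 in R 4.3.3, using TMM scaling, filterByExpr (19180 genes kept) and the quasi-likelihood F-test. Genes were called at a Benjamini-Hochberg adjusted p under 0.05 over all genes tested with a fold over 2. The SE was the log2 difference divided by the square root of F. This SE can be unreliable where the difference is near 0, so the intervals of some level genes may be too narrow. CPM of single genes are counts per 1000000 of the TMM-scaled library size over the genes kept. The summed blood cell markers were scaled to all reads on genes instead. Groups with at most 3 counts in every library were treated as at the floor. Alternatives changed the scaling, filter, tool (DESeq2 1.42.0), libraries, thresholds, late day and replicate block. On simulated data for the difference of responses (19025 genes), 20 of 100 genes changed by 1 on the log2 scale and 63 of 100 changed by 2 reached an adjusted p under 0.05. The members and gene lists were chosen with earlier results of these data known. Named genes were up to 7 called genes per kind of change, filled to 3 by smallest p, the 8 tightest level genes, called list members, the study's example genes, and up to 4 further list members of largest difference. Genes named by kind of change also had the same sign in all 3 same-numbered sets. They had a symbol, a protein-coding or lncRNA biotype and a mean of at least 1 CPM in 1 or more groups. Promoter windows came from a RefSeq table, which held 8 of the 12 genes named by kind of change. Results for a few of the genes that this rule names are not reported here.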

Additional observations from a re-analysis of the deposited data

Results flagged for a closer look

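Effects of IL-1β that differed between exposure times, by a test of the difference itself, were found for 2 genes in the difference of responses and for 2 in the day 21 response minus the day 6 response, and these were ABAT and INHBB in both. The difference of responses was 2.39 for ABAT and -1.63 for INHBB.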

How the results depend on the processing

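No called value changed sign under any alternative. Of the repeated values of the 52 named genes, 1780 kept their direction and side of the threshold, 13 passed it, 8 lost it, and 109, none of them of a called difference, changed sign, among them values of CD274, FOSL1 and TGFB1. Some list medians also changed sign, as given beside the lists. The difference of responses (2 genes) called 1 with total counts only, 1 with at least 10 counts in every library, 8 in the 18 exposure libraries alone and 0 with day 15 as the late response. Its range was 0 to 11 without 1 replicate number or 1 library. For day 21 minus day 6 (2) the counts were 0 with total counts only, 1 with the 10-count filter, 10 with DESeq2, 5 in the 18 libraries and 1 without the high mitochondrial libraries (0 to 10 without 1 replicate). For day 15 minus day 6 (0) they were 2 with DESeq2, 2 with the likelihood ratio test, and 0 to 2 without 1 replicate. In IL-1β cells over time (90) they were 58 with the 10-count filter, 153 with the likelihood ratio test, 136 in the 18 libraries and 48 at an adjusted p under 0.01 (1 to 424 without 1 replicate). In control cells (1) they were 0 with the 10-count filter, 5 with DESeq2, 8 with the likelihood ratio test, 3 with the mitochondrial share as a covariate and 0 without those libraries (0 to 112). Day 6 responses (531) were 304 with the 10-count filter and 819 by adjusted p alone (176 to 405), and late ones (1127) were 526 and 2390 (741 to 1125). Level genes (142) were 235 with the covariate, 237 without the high mitochondrial libraries and 406 by adjusted p alone (33 to 111). The 10-count filter and the fits without a replicate test fewer genes or libraries, and otherwise the cause was not tested.

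Replicate numbers were taken not to pair the libraries, because the rule used needs every same-day pair of control and IL-1β libraries to have a correlation of deviations over 0.1, and 7 of 9 did (0.0709 to 0.375), although 16 of 18 libraries correlated best with their own number. With a replicate block over 36 libraries 2 genes were called in the difference, 1 for day 15 minus day 6, 138 in IL-1β cells and 2 in control cells. With the block over 18 libraries 3 were called in the difference and 0 in control cells. With the block and the mitochondrial covariate together the counts were 3 in the difference, 1 for day 15 minus day 6, 139 in IL-1β cells, 5 in control cells and 239 level.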
